A study of Arabidopsis thaliana with 6 samples.

Results

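The 10 genes described here encode Toll/interleukin-1 receptor (TIR) domain proteins of Arabidopsis thaliana, and they were taken by locus identifier from 33602 loci counted in every library. 6 of them, AT1G72900, AT1G72910, AT1G72920, AT1G72930 (named TIR in the annotation), AT1G72940 and AT1G72950, lie side by side on chromosome 1. AT1G63860 and AT1G66090 lie elsewhere on chromosome 1, and AT5G41740 and AT5G41750 are neighbours on chromosome 5. The list was drawn up from the contrast between wild-type and msh1 memory plants in these same libraries, so the members were chosen by their measured counts in the 2 groups, and the differences between the groups are given as a description with no test.

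In plants, TIR domains are found at the front of many intracellular immune receptors, where they are followed by a nucleotide-binding (NB-ARC) domain and often by leucine-rich repeats (LRR). Activated TIR domains are enzymes that break down NAD+, and the small molecules they make are sensed by complexes of EDS1 with PAD4 or SAG101, which act with the helper receptors of the ADR1 and NRG1 families. Arabidopsis also has genes for shortened proteins that have a TIR domain alone or a TIR domain and an NB-ARC domain without repeats, and such genes tend to lie in tandem arrays.

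3 wild-type plants (numbers 22, 23 and 24) were compared with 3 plants of an isogenic msh1 memory line (numbers 31, 32 and 33), all of the Columbia-0 accession and each sequenced as 1 library from an unstranded TruSeq kit. MSH1 encodes a MutS-like protein of plastids and mitochondria, and a memory line, as background, descends from plants whose MSH1 was silenced by a transgene that the line has since lost, while it keeps an altered growth habit. The labels name no parent plants for either group. Plants were stratified for 2 days at 4 °C, then grown at 22 °C with 120 to 150 µmol of photons per square metre each second, and each was frozen whole at early bolting. The labels name no agent applied to either group.

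Libraries held between 4060216 and 5806617 counts, so that 1 CPM (TMM-scaled counts-per-million, with TMM the trimmed mean of M values) stood for 4.34 to 5.76 reads, and a count of 0 allowed up to 0.521 to 0.691 CPM (3 counts, counting error only). MSH1 itself averaged 14.0 CPM with an SD of 2.93 over wild type and 14.1 CPM with an SD of 2.33 over memory plants (n = 3 each), with no detected difference (edgeR adjusted p = 0.991). Wild-type plant 23 stood apart: the Pearson correlation of log2 CPM across genes with any other plant was at most 0.946, against at least 0.948 for every other pair of plants. In plant 23 the 4 markers of dividing cells summed to 8.68 CPM, against 31.3 to 47.2 CPM in the other 5 plants, and its part in the members' values was not tested. The 4 leaf markers summed to between 28729.6 and 40211.8 CPM in all plants. The 8 root markers did not exceed 0.579 CPM in any plant, and 3 of them, EXPA7, IRT1 and MYB36, had no read, although the labels speak of whole plants. The summed level of the 6 flower markers was 2.33, 5.02 and 5.90 CPM for plants 22, 23 and 24 but 4.90, 9.83 and 11.5 CPM in plants 31, 32 and 33, and their part in the members' values was not tested.

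The sequences before 5 of the genes are printed because they carry some of the features compared further on. Each is 250 bases up to the annotated gene start in assembly TAIR10.1, written 5′ to 3′ in the direction of the gene. Capitals mark every match, on either strand, to TTGAC (the core of the W-box bound by WRKY factors), CGCGT (the core of the box bound by CAMTA factors), GCCGCC (the GCC box bound by ethylene response factors) or TGACG (the core of the as-1 element bound by TGA factors). AT1G72910 and AT1G72940 are taken from the chromosome 1 cluster, AT1G66090 is the gene with the widest difference between the groups, and AT1G63860 and AT5G41740 carry a CGCGT match as AT1G66090 does. None of the 5 printed sequences holds GCCGCC, which occurs at the cluster genes AT1G72900, AT1G72920, AT1G72930 and AT1G72950.
AT1G72910, chr1:27435056-27435305, + strand: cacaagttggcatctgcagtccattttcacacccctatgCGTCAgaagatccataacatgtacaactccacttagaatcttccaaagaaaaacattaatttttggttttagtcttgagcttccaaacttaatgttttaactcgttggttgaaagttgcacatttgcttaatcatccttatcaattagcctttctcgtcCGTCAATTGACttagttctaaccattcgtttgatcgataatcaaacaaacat
AT1G72940, chr1:27441731-27441980, + strand: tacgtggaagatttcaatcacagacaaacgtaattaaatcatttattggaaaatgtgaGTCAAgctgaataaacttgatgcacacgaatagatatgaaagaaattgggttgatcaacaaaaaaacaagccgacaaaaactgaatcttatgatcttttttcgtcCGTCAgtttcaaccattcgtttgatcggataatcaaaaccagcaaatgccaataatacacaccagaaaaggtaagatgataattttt
AT1G66090, chr1:24601783-24602032, + strand: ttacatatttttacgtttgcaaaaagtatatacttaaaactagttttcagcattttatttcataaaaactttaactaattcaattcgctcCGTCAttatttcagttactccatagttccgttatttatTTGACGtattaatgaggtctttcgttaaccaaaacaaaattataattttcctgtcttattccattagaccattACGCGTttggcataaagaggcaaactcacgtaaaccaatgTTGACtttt
AT1G63860, chr1:23706059-23706308, - strand: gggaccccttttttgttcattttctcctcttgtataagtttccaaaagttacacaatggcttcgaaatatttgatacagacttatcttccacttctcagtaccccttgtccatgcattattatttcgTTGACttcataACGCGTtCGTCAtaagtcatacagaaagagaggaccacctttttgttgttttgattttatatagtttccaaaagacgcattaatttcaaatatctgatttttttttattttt
AT5G41740, chr5:16688376-16688625, + strand: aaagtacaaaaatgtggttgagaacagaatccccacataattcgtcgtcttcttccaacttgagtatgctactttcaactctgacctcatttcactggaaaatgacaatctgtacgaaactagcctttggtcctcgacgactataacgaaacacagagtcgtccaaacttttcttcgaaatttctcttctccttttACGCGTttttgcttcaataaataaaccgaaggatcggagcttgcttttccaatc

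The 6 cluster genes occupy 13820 bases (chr1:27432178-27445997), all on the + strand. AT1G72920 and AT1G72930 are only 30 bases apart, whereas 1523 bases separate AT1G72900 from AT1G72910, 706 separate AT1G72910 from AT1G72920, 1516 separate AT1G72930 from AT1G72940, and 555 separate AT1G72940 from AT1G72950. The annotation gives AT1G72920 and AT1G72930 a TIR domain without NB-ARC, and gives AT1G72900, AT1G72910, AT1G72940, AT1G72950 and AT1G66090 (chr1:24602033-24604763, + strand) both domains without repeats. AT1G63860 (chr1:23701408-23706058, - strand), AT5G41740 (chr5:16688626-16693119, + strand) and AT5G41750 (chr5:16693832-16699028, + strand) have product names of the TIR-NBS-LRR class. The domain notes of AT1G63860 and AT5G41740 include repeats, whereas those of AT5G41750 list TIR and NB-ARC without them.

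The cluster genes are close copies. Over 531 aligned coding bases AT1G72910 and AT1G72930 were 97.6% identical, and their exons shared an exact run of 155 bases. AT1G72920 and AT1G72940 were 90.9% identical over 823 aligned bases, and AT5G41740 and AT5G41750 were 91.3% identical over 3144. The other pairs within the cluster lay between 78.9% and 85.4%.

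Because of these copies, some reads could have come from more than 1 member. Of all 50-base stretches of exon, 23.7% of those in AT1G72930, 17.7% in AT1G72910, 14.4% in AT1G72920, 12.1% in AT1G72940, 11.9% in AT5G41740 and 9.29% in AT5G41750 occurred exactly in another annotated gene, the partner named above among them. None did in AT1G72900 or AT1G66090, 1.64% did in AT1G63860, and 4.09% did in AT1G72950, which overlaps the antisense non-coding locus AT1G09357 by 108 bases. How the authors treated reads with several possible origins is not given in the sources used here, so the values of these pairs carry that uncertainty, and within those 108 bases reads of AT1G72950 and its antisense partner cannot be told apart. AT1G72900 and AT1G66090 are free of it at this length.

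AT1G72900, a TIR and NB-ARC gene at the upstream end of the cluster, stood at 15.8, 16.6 and 23.4 CPM in wild-type plants 22, 23 and 24 but at 8.95, 7.02 and 8.53 CPM in memory plants 31, 32 and 33. All memory plants lay below all wild-type plants. The log2 fold change (memory minus wild type) was -1.19 with a standard error (SE) of 0.230. In whole-plant RNA, fewer cells that express a gene and less RNA per cell cannot be told apart, here and for every gene that follows.

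AT1G72910, which also encodes TIR and NB-ARC domains, was at 81.5, 71.4 and 130.5 CPM in wild-type plants 22, 23 and 24 and at 51.4, 39.9 and 34.8 CPM in memory plants 31, 32 and 33. The groups did not overlap, and plant 24 stood well above the other 2 wild-type plants. The log2 fold change was -1.17 (SE 0.237).

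AT1G72920, which encodes a TIR domain alone, was at 18.8, 10.2 and 26.4 CPM in plants 22, 23 and 24 and at 6.82, 7.62 and 4.84 CPM in plants 31, 32 and 33. The groups did not overlap, but wild-type plant 23 was only 1.34 times the highest memory plant. On the log2 scale the fold change was -1.52 (SE 0.336).

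AT1G72930 (TIR), which lies directly after AT1G72920 and also encodes a TIR domain alone, was at 261.1, 340.6 and 242.7 CPM in plants 22, 23 and 24 and at 309.5, 275.4 and 292.3 CPM in plants 31, 32 and 33. Here the memory plants fell inside the wild-type range, and plant 24, the highest wild-type plant for AT1G72910 and AT1G72920, was the lowest of all 6. The fold change on the log2 scale was 0.06 (SE 0.160).

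AT1G72940, with TIR and NB-ARC domains, was at 14.7, 12.0 and 16.7 CPM across wild-type plants (from here on in the same order of plants) and at 8.74, 9.43 and 12.0 CPM in memory plants. The groups touched, with memory plant 33 at the level of wild-type plant 23. The log2 fold change was -0.53 (SE 0.225).

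AT1G72950, the last gene of the array, had between 6 and 19 reads in a library, which corresponds to 2.33, 2.51 and 1.74 CPM in wild type and 1.28, 3.81 and 1.61 CPM in memory plants. At this depth no difference could be seen, and the log2 fold change of 0.05 had an SE of 0.511. It was -0.58 without memory plant 32.

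**Figure D1:**
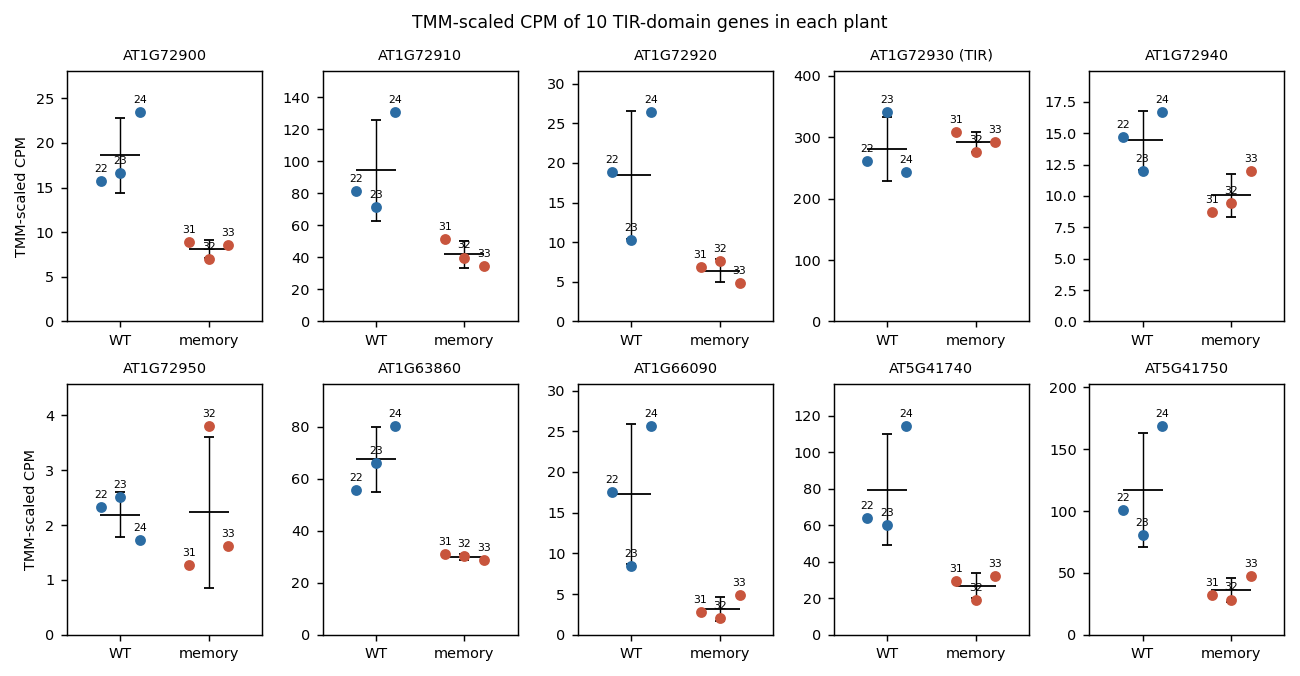
Each panel shows 1 gene, with TMM-scaled CPM on a linear axis from 0 and 1 point for each plant, labelled with its number (blue wild type, red memory); the black mark and bar are the mean and SD of 3 plants. 7 panels have all memory points below all wild-type points, while AT1G72930, AT1G72940 and AT1G72950 do not.

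The proportions within the array differed between plants. AT1G72930 supplied 66.2% of the reads of the 6 cluster genes in plant 22 (exact 95% interval 64.2 to 68.2), 75.1% in plant 23 (73.3 to 76.9) and 55.0% in plant 24 (53.0 to 56.9). In memory plants it supplied 80.0% in plant 31 (78.1 to 81.9), 80.2% in plant 32 (78.3 to 82.1) and 82.6% in plant 33 (80.6 to 84.4). These intervals cover counting error only. All memory plants had higher shares than all wild-type plants, and the summed CPM of the 5 other cluster genes was 112.7 to 198.7 in wild type and 61.8 to 77.2 in memory plants. For AT1G72910 and AT1G72930, the closest copies, the ratio of AT1G72930 reads to AT1G72910 reads was 3.20, 4.77 and 1.86 in plants 22, 23 and 24 and 6.02, 6.90 and 8.40 in plants 31, 32 and 33.

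Of the genes outside the array, AT1G63860, a full TIR-NBS-LRR gene, was at 55.8, 66.0 and 80.3 CPM in plants 22, 23 and 24 and at 30.9, 30.3 and 28.6 CPM in plants 31, 32 and 33. The memory plants lay close together and all below wild type. The log2 fold change was -1.17 with the smallest SE among the 7 genes that did not overlap, 0.160.

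AT1G66090, a TIR and NB-ARC gene, was at 17.6, 8.49 and 25.7 CPM across wild-type plants and at 2.77, 2.01 and 4.84 CPM in memory plants (98, 44 and 148 reads against 13, 10 and 21). It had the widest difference of the 10 genes and also the widest spread among wild-type plants, 3.02-fold. The log2 fold change was -2.44 (SE 0.453).

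The chromosome 5 receptor gene AT5G41740 was at 63.9, 60.01 and 114.5 CPM across wild-type plants and at 29.4, 19.3 and 32.0 CPM in memory plants, a log2 fold change of -1.57 (SE 0.289). Its neighbour AT5G41750 was at 101.2, 80.7 and 169.0 CPM across wild-type plants and at 32.4, 28.5 and 47.5 CPM in memory plants, a log2 fold change of -1.70 (SE 0.304). Both were lower in every memory plant than in every wild-type plant and highest in plant 24. Their ratio varied less: the ratio of AT5G41750 reads to AT5G41740 reads was 1.34 to 1.58 in wild type and 1.101 to 1.48 in memory plants.

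7 of the 10 genes were lower in memory plants with no overlap between the groups, beside 10.2% of all 16928 tested genes, and none was higher with no overlap, beside 9.49%. The same 7 were past an edgeR adjusted p of 0.05 as lower, beside 1.37% of all tested genes, and 0 as higher, beside 0.449% (1.82% in either direction), and since these values chose the members nothing is read from either count. The least negative of the 7 was AT1G72910 at -1.17 and the nearest member outside them was AT1G72940 at -0.53. All 10 passed the filter on low counts. The median log2 fold change of the 10 was -1.18, and over all tested genes it was 0.008. With 1 plant left out the number past the threshold was 3 without plant 22, 7 without plant 23, 5 without plant 24, 0 without plant 31, 1 without plant 32 and 0 without plant 33, where the number of lower calls among all genes was 177, 562, 186, 24, 52 and 32.

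Levels per length set AT1G72930 apart from the others. In CPM per kilobase of exon it stood at 249.8 ± 46.1 in wild type and 259.4 ± 15.1 in memory plants (SD, n = 3 each), followed by AT1G72910 at 53.2 ± 17.8 and 23.7 ± 4.77. In wild type the levels per kilobase then ran from AT5G41750 (23.8 ± 9.39) through AT5G41740, AT1G63860, AT1G72920, AT1G72900 and AT1G66090 to AT1G72940 (8.09 ± 1.32), and no neighbours in this stretch differed beyond their SDs. AT1G72950 was lowest, at 1.47 ± 0.272. In memory plants AT1G63860, AT5G41750, AT5G41740, AT1G72900, AT1G72940 and AT1G72920 lay between 7.59 and 5.28 CPM per kilobase without separation of neighbours. There AT1G66090 (1.92 ± 0.879) and AT1G72950 (1.497 ± 0.922) could not be told apart.

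Wild-type plant 24 was the highest wild-type plant for 8 of the 10 genes, and plant 23 the lowest for 6. Summed over the 9 members without AT1G72930, levels were 371.6, 327.8 and 588.2 CPM in plants 22, 23 and 24 and 172.6, 147.9 and 174.7 CPM in plants 31, 32 and 33. Plant 24 was also highest among wild type for 28 of 29 genes of a rapid touch and wound list, whose summed level was 762.8, 610.3 and 1964 CPM in plants 22, 23 and 24 and 372.8, 404.6 and 390.4 CPM in plants 31, 32 and 33. The part that this response has in the members' values was not tested. Without plant 24 the log2 fold changes of the 7 genes that did not overlap were between -2.03 (AT1G66090) and -0.86 (AT1G72910), and the median of all 10 was -1.003.

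**Figure D2:**
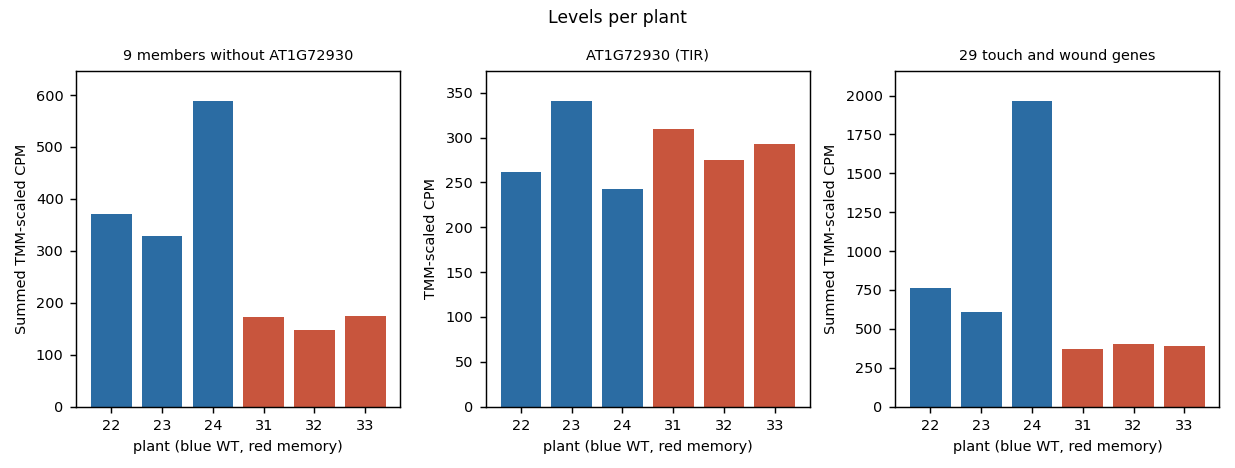
Bars give TMM-scaled CPM per plant on linear axes from 0 (blue wild type, red memory): the sum of 9 members, AT1G72930 alone, and the sum of 29 touch and wound genes. Plant 24 is highest in the left and right panels (588.2 and 1964 CPM) and lowest in the middle panel (242.7 CPM).

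Across the 6 plants the 7 genes varied together. Pearson correlations of log2 CPM for their 21 pairs lay between 0.85 and 0.99, while AT1G72930 had correlations between -0.64 and -0.26 with them. These are descriptions over 6 plants that share the difference between the groups, and the genes of a near-identical pair may share reads.

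The genes outside the list whose pattern was most like the mean standardised profile of the 10 members were PDF1.2b (r = 0.995), a jasmonate- and ethylene-responsive defensin gene, and iPGAM1 (0.993), which encodes a phosphoglycerate mutase. They were followed by the armadillo repeat gene ARO2 (0.993), AT5G60680 (0.992), the oxysterol-binding family gene UNE18 (0.992), the calcium-signalling kinase gene CIPK21 (0.990), the DnaJ-domain gene AT1G56300 (0.989), the proton pump interactor gene PPI1 (0.989), AT4G01090 (0.989) and the cyclophilin-type isomerase gene AT3G63400 (0.989). In all 174 of the other tested genes had a correlation of at least 0.95 over these 6 plants, which share the difference between the groups. None of the 10 is in the immune lists that follow. PDF1.2b stood at 10.8 ± 5.29 CPM over wild type and 1.58 ± 0.284 CPM over memory plants (SD, n = 3 each), which is given with no test since likeness to the members chose it.

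The genes that flank the members did not pass the edgeR test. AT1G72890, a TIR-NBS gene that ends shortly before AT1G72900, was at 10.9, 20.6 and 9.02 CPM across wild-type plants and at 10.02, 10.2 and 15.9 CPM in memory plants, with a log2 fold change of -0.17 (SE 0.321, edgeR adjusted p = 0.884). The TIR-NBS-LRR gene AT1G63880, near AT1G63860, was at 157.0 ± 43.2 and 127.1 ± 5.92 CPM (edgeR adjusted p = 0.556; SD, n = 3 each). Of the 5 annotated genes on each side of each locus or run of loci, 34 are in the files and 17 were tested. None passed the edgeR threshold of 0.05, 1 was higher at an unadjusted p under 0.05 (beside 5.67% of all tested genes), and by DESeq2 there was 1 higher call (beside 0.685%), for the thionin gene AT1G66100 next to AT1G66090 (61.7 ± 15.3 and 115.9 ± 43.5 CPM; edgeR adjusted p = 0.178, DESeq2 adjusted p = 0.0146). The median log2 fold change of the 17 was 0.14.

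**Figure D3:**
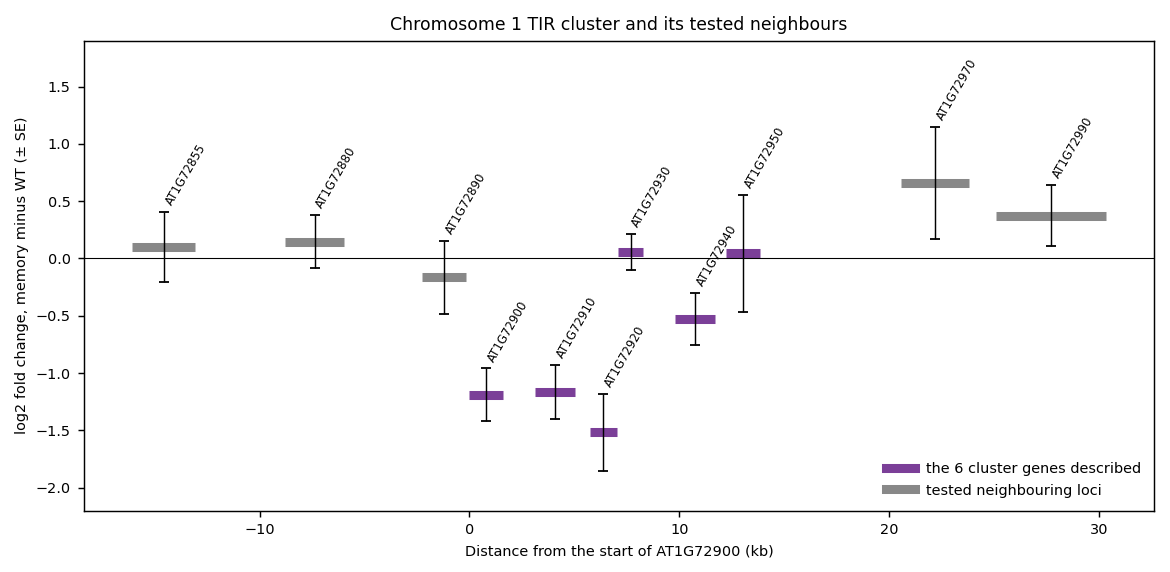
Horizontal bars span each gene of the chromosome 1 array (purple) and its tested neighbours (grey), with distance from the start of AT1G72900 in kb on the x axis and the log2 fold change on the y axis; vertical bars are SE. AT1G72900, AT1G72910 and AT1G72920 lie between -1.52 and -1.17, AT1G72930 lies at 0.06 next to them, and AT1G72890 before them lies at -0.17.

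Among the 120 other loci annotated with a TIR domain, 66 had enough reads to test, 1 was lower and none higher (1.52% against 1.37% of all tested genes), and 23 had no read in any plant. AT4G19520, a TIR-NBS-LRR gene, fell from 154.7 ± 20.2 CPM (135.8, 176.0 and 152.2 in plants 22, 23 and 24) to 82.6 ± 10.102 CPM (77.4, 76.2 and 94.3 in plants 31, 32 and 33; SD, n = 3 each). Its log2 fold change was -0.90 (SE 0.153, edgeR adjusted p = 0.0109). The groups did not overlap. This call was lost without plant 31, 32 or 33 (edgeR adjusted p = 0.121, 0.102 and 0.0529), and without plant 23 there were 5 lower calls among these genes, beside 3.27% of all genes tested in that fit.

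Of the 66, 58 (87.9%) had negative fold changes, beside 48.8% of all tested genes, 17 (25.8%) were lower with no overlap between the groups, beside 10.2%, and their median log2 fold change was -0.26. That median shrank to -0.08 without plant 23, and with another plant left out it lay between -0.38 and -0.17. With all plants, log2 fold changes ran from -1.30 to 0.94, with AT4G14370 lowest and AT1G47370 highest, both at low levels and named after their values were seen. By annotated class the medians were -0.29 for 56 TIR-NBS-LRR genes, -0.16 for 6 TIR-NBS genes and -0.07 for 4 genes with TIR alone. At an unadjusted p under 0.05, 18 of the 66 were lower, beside 7.17% of all tested genes, and DESeq2 called 1 lower, beside 2.35%.

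**Figure D4:**
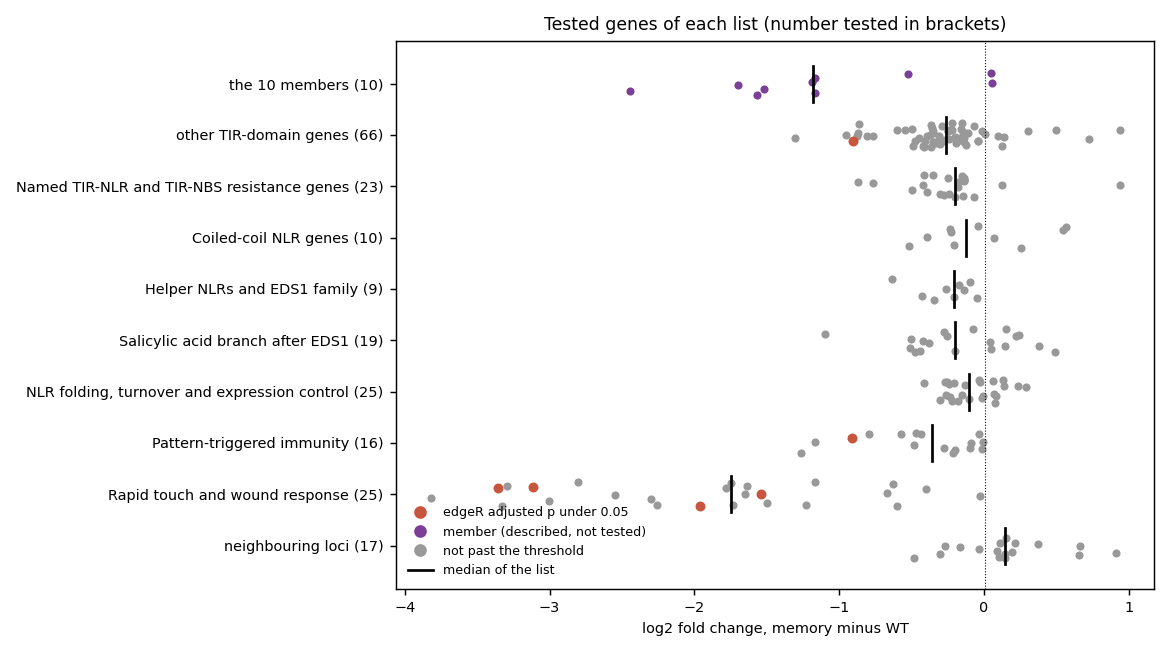
Each point is the log2 fold change of 1 tested gene (x axis) in the list named on the left, with the number tested in brackets; purple points are the 10 members, red points are past an edgeR adjusted p of 0.05, black bars are medians and the dotted line is the median of all tested genes. The touch and wound list (median -1.75) lies furthest left among the lists, and the other immune lists have medians between -0.36 and -0.10.

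Receptors with established names gave no call. Of 25 named TIR-type resistance genes (most of them also among the 120 loci above) 23 were tested, none passed with edgeR or DESeq2, and 4 were lower at an unadjusted p under 0.05 (beside 7.17%), with a median of -0.20. Of the 23, 21 (91.3%) had negative fold changes, beside 48.8% of all tested genes. Their median shrank to -0.04 without plant 23, and with another plant left out it lay between -0.37 and -0.16. The member with the smallest p was AT1G56540, a TIR-NBS-LRR gene, at 14.7 ± 2.47 and 8.04 ± 1.41 CPM (SD, n = 3 each; edgeR adjusted p = 0.0935, or 0.0210 without plant 23). Of 10 coiled-coil receptor genes none passed with either tool and 2 were lower at an unadjusted p under 0.05 (beside 7.17%). RPS2, the receptor that responds to the bacterial effector AvrRpt2, was at 54.3 ± 7.28 and 37.9 ± 4.502 CPM (SD, n = 3 each; edgeR adjusted p = 0.137). The median of that list was -0.13, and 6 of the 10 (60%) had negative fold changes, beside 48.8% of all tested genes. Without plant 23 the median of the list was 0.05, and with another plant left out it lay between -0.24 and -0.09.

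The genes through which TIR receptors signal did not pass either. Of 10 helper receptor and EDS1 family genes 9 were tested and none was past the edgeR threshold, with a median log2 fold change of -0.21, 2 lower at an unadjusted p under 0.05 (beside 7.17%) and none called by DESeq2. All 9 had negative fold changes (beside 48.8% of all tested genes), and 2 (22.2%) were lower with no overlap between the groups (beside 10.2%). Their median shrank to -0.05 without plant 23 and to -0.06 without plant 32. With another plant left out it lay between -0.35 and -0.20. EDS1, the common partner in these complexes, was at 49.7 ± 6.05 and 46.3 ± 6.14 CPM (edgeR adjusted p = 0.850; SD, n = 3 each). PAD4, which pairs with EDS1 and acts with the ADR1 helpers, was at 38.6 ± 4.82 and 35.1 ± 4.78 CPM (edgeR adjusted p = 0.783). SAG101, which pairs with EDS1 and acts with the NRG1 helpers, was at 27.7 ± 3.04 and 20.7 ± 2.40 CPM (edgeR adjusted p = 0.291). The helper receptor gene ADR1-L2 had the smallest p, with 57.5 ± 3.19 and 37.0 ± 8.76 CPM (edgeR adjusted p = 0.0906, 0.0471 without a filter on low counts and 0.0194 without plant 23).

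In the salicylic acid branch that EDS1 and PAD4 feed, 19 of 21 genes were tested and none was past the edgeR threshold. Of the 19, 11 (57.9%) had negative fold changes, beside 48.8% of all tested genes. The median was -0.20, 4 of the 19 were lower at an unadjusted p under 0.05 (beside 7.17% of all tested genes), and DESeq2 called 1 lower (beside 2.35%). That gene was CBP60G, a transcription factor gene that promotes salicylic acid synthesis, at 49.3 ± 20.8 and 23.1 ± 3.46 CPM (SD, n = 3 each; edgeR adjusted p = 0.0919, DESeq2 adjusted p = 0.00508, and edgeR adjusted p = 0.0454 without plant 23). Its levels were 37.0, 37.6 and 73.4 CPM in plants 22, 23 and 24, so plant 24 was high here too. PR1, a classical marker of salicylic acid responses, was at 163 ± 52.6 and 142 ± 41.2 CPM (edgeR adjusted p = 0.820).

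Of 26 genes for folding, turnover and expression control of such receptors 25 were tested and none was past the edgeR threshold, at an unadjusted p under 0.05 or called by DESeq2 (0 in each case). SGS3, which takes part in the small RNA pathway that represses receptor genes, had the smallest p, with 25.02 ± 5.63 and 18.8 ± 3.01 CPM (SD, n = 3 each; edgeR adjusted p = 0.426). The median was -0.10, and 17 of the 25 (68%) had negative fold changes, beside 48.8% of all tested genes.

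The list of 19 genes of immunity triggered at the cell surface was chosen with earlier results of these data known. Nothing is therefore read from its share of calls. Of the 19 genes, 16 were tested, all 16 had negative fold changes, and 1 fell (6.25% against 1.37% of all tested genes). It was FLS2, the receptor kinase gene for bacterial flagellin, at 90.6, 120.0 and 84.2 CPM in plants 22, 23 and 24 and at 47.7, 53.8 and 55.3 CPM in plants 31, 32 and 33. The groups did not overlap, and the log2 fold change was -0.91 (SE 0.161, edgeR adjusted p = 0.0139). This call was lost without plant 31, 32 or 33 (edgeR adjusted p = 0.137, 0.0988 and 0.0938), 4 genes of the list passed without plant 23 (beside 3.27% of all genes), and 7 were lower at an unadjusted p under 0.05 (beside 7.17%).

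The touch and wound list was chosen with earlier results of these data known, so nothing is read from its share of calls. In it, 25 of 29 genes were tested, all 25 had negative fold changes and 4 fell (16.0% against 1.37%). They were the jasmonate repressor gene JAZ1 (64.5 ± 22.3 and 16.5 ± 2.83 CPM, edgeR adjusted p = 0.00440), the zinc finger gene CZF1 (73.3 ± 31.9 and 25.2 ± 3.51 CPM, edgeR adjusted p = 0.0343), the ethylene response factor gene ERF5 (21.6 ± 13.2 and 2.46 ± 0.955 CPM, edgeR adjusted p = 0.0222) and AT5G51190, listed as the ethylene response factor gene ERF105 and annotated as an integrase-type DNA-binding gene (12.6 ± 7.17 and 1.199 ± 0.584 CPM, edgeR adjusted p = 0.00720; SD, n = 3 each). The number was 8 without plant 23 (beside 3.27% of all genes) and 11 without plant 24 (beside 186 lower genes of 17085 tested). It was 0 without plant 31, 1 without plant 32 and 0 without plant 33, beside 24, 52 and 32 lower genes in all. CZF1 did not pass with library totals as the scale (edgeR adjusted p = 0.0672). The median log2 fold change of the list was -1.75 with all plants and -0.84 without plant 24. With another plant left out it lay between -2.15 and -1.81.

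The upstream sequences differed in which of the motifs they held. From 250 bases before to 50 after the gene start, TTGAC occurred in 8 of the 10 members and in 50.5% of 27443 protein-coding genes. TGACG, which overlaps TTGAC in TTGACG, occurred in 6 members and in 23.1% of the genes. AT1G72900, AT1G72910, AT1G72930 and AT1G72940 hold both motifs and are close copies in the array, so these matches are not independent. CGCGT occurred in 3 members, AT1G63860, AT1G66090 and AT5G41740, and in 8.70% of the genes. In all 3 it lies in ACGCGT, which reads the same on both strands, as the printed sequences show.

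GCCGCC occurred in 4 members, AT1G72900, AT1G72920, AT1G72930 and AT1G72950, and in 2.57% of the genes. All 4 lie in the array, whose genes are close copies, so they are not independent. AAAATATCT, the evening element of clock-controlled genes, occurred in none of the 10 and in 2.82% of the genes. The sequences before AT1G72910 and AT1G72930, which differed in fold change (-1.17 and 0.06), share an exact run of 81 bases. In AT1G72910 it ends 2 bases before the start and in AT1G72930 it ends 81 bases before the start. It carries the pair of TTGAC matches, 1 on each strand, that stand 51 and 46 bases before AT1G72910. Only 30 bases separate AT1G72920 from AT1G72930, so the AT1G72930 copy of the run lies inside the annotated gene AT1G72920. Any link of the run to the fold changes was not tested. The windows before AT1G72900, AT1G72920 and AT1G72950 also overlap other annotated genes (AT1G72890, AT1G09343 and AT1G09357), so motif matches there may lie inside those genes. A motif match is a description of the letters and not a binding site.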

How the data were processed

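Per the labels' protocols, RNA of 6 single plants was sequenced with 150-bp reads. The deposited values are unnormalised counts for each gene, made by the authors. TAIR10 and DESeq2 appear in the submitters' processing notes. Which aligner was used, and how it handled multiply mapping reads, is not given in the sources used here. Within-group library pairs differed by more than sampling noise (chi-square per degree of freedom at least 3.23).

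All 33602 loci were filtered with filterByExpr (minimum count 10, minimum total 15), scaled by TMM and compared with edgeR 4.0.16 in R 4.3.3 (robust quasi-likelihood test, two-sided, Benjamini-Hochberg over 16928 genes, threshold 0.05). The fit was tested on simulated data. Standard errors derive from the fold change and F. Alternatives were size factors, library totals, no filter, no robust estimation, DESeq2 1.42.0, windows before the start only and leaving out each plant.

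Names, positions and sequences come from RefSeq TAIR10.1 (32835 loci matched), with promoter windows read from the genome; coding sequences were aligned in place of the planned protein comparison. Likeness was Pearson's r of log2(CPM + 0.5) with the mean of the members' z-scores. Named genes were the members, up to 4 called genes with the smallest p in each direction from each list (or the 1 with the smallest p), called neighbours and the 10 genes most like the members; others are said to be chosen after their values were seen, as are EDS1, PAD4, SAG101, PR1, AT1G72890 and AT1G63880. The members and lists were chosen with earlier results of these data known.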

Additional observations from a re-analysis of the deposited data

How the results depend on the processing

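The direction of the log2 fold change held for all 7 members that did not overlap under all settings run, and 7 or 8 members did not overlap, the eighth being AT1G72950 without plant 32 and AT1G72940 under the other such settings. No called result changed sign. DESeq2, with its own filter, called 405 genes lower and 118 higher, 1 in the salicylic acid branch, 13 in the touch and wound list and 1 higher among the neighbouring loci. Without a filter on low counts 120 genes were higher and 333 were lower of 22461 tested. The lower ones included 3 other TIR-domain genes and 1 helper or EDS1 family gene. Without robust estimation 11 touch and wound genes were lower, beside 230 lower genes of 16928 tested. With library totals only 2 members passed, beside 173 lower genes of 16928 tested. Leaving out 1 plant gave 24 to 562 lower and 6 to 457 higher genes in all, 0 to 7 members, 0 to 5 other TIR-domain genes, 0 to 1 named TIR-type genes, 0 to 1 helper or EDS1 family genes, 0 to 2 salicylic acid genes, 0 to 4 cell-surface immunity genes and 0 to 11 touch and wound genes. For these changes the cause was not tested. Adjusted p was compared between settings for AT4G19520, AT1G56540, RPS2, ADR1-L2, CBP60G, SGS3, FLS2, JAZ1, CZF1, ERF5, AT5G51190 and AT1G66100. Of these values, 108 kept their side of the threshold under alternatives, 18 no longer passed and 6 newly passed. Other named genes outside the members, such as EDS1, PAD4, SAG101, PR1 and MSH1, were not compared in this way. For the members only fold changes were compared: 109 differed from the reported value by less than 1 SD between plants, and 1 by more (AT1G72950 without plant 32). With the window before the start only, 7 members held TTGAC and 3 held GCCGCC. No paired analysis was possible because no plant number occurs in both groups. Depth limits AT1G72950, with at most 19 reads in a library, and many other TIR-domain loci had too few reads to test.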
